A study of Rattus norvegicus with 3 samples.

Results

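Neutrophils store their antimicrobial proteins in granules that are filled in a set order while the cell matures, and 10 genes that follow this order were measured in cells of the injured rat spinal cord. They were taken by symbol from the deposited feature tables, where all 10 were found among 25199 features. Elane, Mpo and Prtn3 stand for the primary granules, Ngp, Camp, Ltf, Lcn2 and Mmp8 for the secondary and later granules, and S100a8 and S100a9 for the cytosolic proteins of late stages. Raw counts of unique molecular identifiers (UMIs, 1 per captured RNA molecule) were read in 3 droplet libraries. The G-HD library came from cord injected with the hydrogel G-HD at the injury site, the MPG-HD library from cord injected with the hydrogel MPG-HD, and the PBS library from cord injected with PBS, which was taken as the control injection. All animals were wild type rats of 6 to 8 weeks, with 5 animals per condition, and the labels do not say how their cells were combined. The sources used here do not give strain, sex, time after injury or the makeup of the hydrogels. Each condition had 1 library, so no test between conditions was possible, and every interval below is a 95% interval that covers counting error only.

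In textbook accounts, the promyelocyte, an early precursor of the bone marrow, makes the proteins of the primary granules, the myelocyte and metamyelocyte those of the secondary granules, and the band cell those of the gelatinase granules, while transcripts for granule proteins are largely shut off in the circulating neutrophil. A tissue neutrophil is therefore usually known for stored granule protein rather than for granule RNA. S100a8 and S100a9, which pair to form calprotectin, remain abundant as RNA in mature cells.

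After filtering, 2341 G-HD, 2087 MPG-HD and 1373 PBS cells remained, with medians of 9257, 10425 and 10296 UMIs. The cells were clustered without these 10 genes and without the other granule genes listed for the pathway. Neutrophil-like cells formed 2 clusters. Cluster 14 (121 cells, median 1474 UMIs) held 8 of 13 neutrophil markers in at least 20% of its cells, among them G0s2 in 100% and Il1r2 in 83.5%. Cluster 17 (70 cells, median 5832.5 UMIs) held 7 of the 13, with Fpr2 in 87.1% and Trem3 in 90%, and also Cebpe, a regulator of late granulocyte precursors, in 77.1%, against 1.65% of cluster 14. Of the 5 precursor markers, only Cebpe reached 20% of cluster 17, so that cluster is not named as a precursor class. Of the 70 cells of cluster 17, 64 came from the G-HD library, 2 from MPG-HD and 4 from PBS, so what is described in cluster 17 is mostly 1 library. Cluster 19 (57 cells), led by Fcnb and Plac8, also held 7 of the 13 neutrophil markers in at least 20% of its cells, and 3 of 6 monocyte markers. Of the 5 precursor markers it held 2 at that share, Cebpe in 26.3% and Fcnb in 52.6%, where Fcnb was in 0% of cluster 17. It was not named, because another class had at least as many markers among its 10 leading genes as the best-scoring class. Cluster 10 (206 cells) was the cycling cluster, led by cell cycle genes and also by haemoglobin genes. In all, 21 barcodes occurred in 2 libraries, and 4 G-HD and 1 MPG-HD neutrophil-like cells carried one.

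The neutrophil-like class made up 5.77% of the G-HD library (4.86 to 6.79), 1.49% of MPG-HD (1.01 to 2.10) and 1.82% of PBS (1.18 to 2.68). Cluster 17 alone made up 2.73% of the G-HD library, 0.0958% of MPG-HD and 0.291% of PBS, and the G-HD share was 9.38 times that in PBS (3.49 to 35.5). Cluster 14 made up 3.03% in G-HD, 1.39% in MPG-HD and 1.53% in PBS, with a G-HD over PBS ratio of 1.98 (1.2 to 3.4).

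The 10 genes together made up 38.2% of all UMIs of neutrophil-like cells in G-HD, 19.7% in MPG-HD and 37.2% in PBS. With cluster 19 counted in the class, which was added after seeing the data, they made up 30.3% in G-HD, 9.18% in MPG-HD and 15.6% in PBS, and G-HD over PBS was 1.95 in place of 1.03. Neutrophil-like cells held 98.0% of the UMIs of these genes in G-HD, 83.9% in MPG-HD and 88.6% in PBS. Of the UMIs outside, 1 cell of the cycling cluster held 304 of 4333 in G-HD, 583 of 2131 in MPG-HD and 2042 of 3216 in PBS. Mmp8 in macrophage-like cells gave a further 1069, 1055 and 505. Levels are given as CPM, the gene's UMIs scaled to 1000000 UMIs of the summed class. The map of levels over cell classes shows the primary genes in few places, Ngp and Camp in cluster 17, Lcn2 and Mmp8 also outside the lineage, and the late genes in both neutrophil-like clusters.

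**Figure D1:**
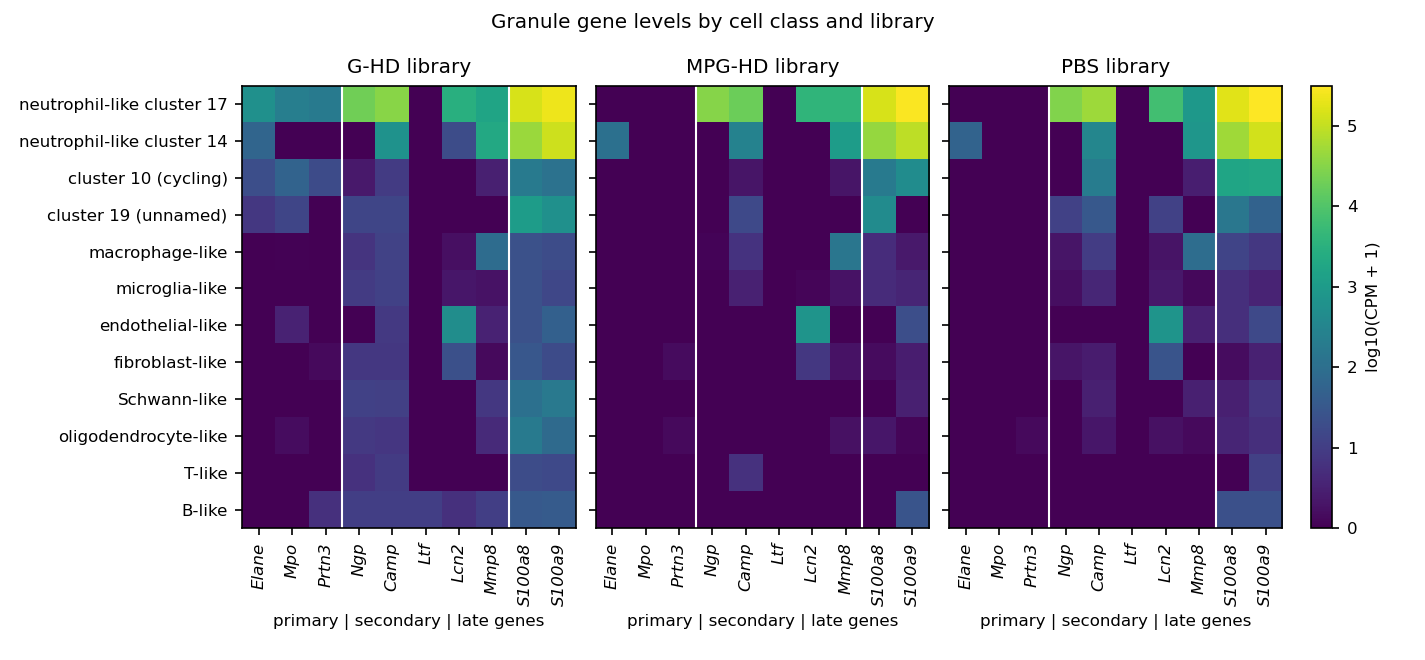
Levels of the 10 genes as log10(CPM + 1) in the summed UMIs of each cell class (rows) in the G-HD, MPG-HD and PBS libraries (panels); white lines separate primary, secondary and late genes. S100a8 and S100a9 are bright in both neutrophil-like clusters of every library, Mmp8 also in macrophage-like cells and Lcn2 also in endothelial-like cells.

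The primary granule genes came almost wholly from a handful of G-HD cells. Elane encodes neutrophil elastase and Prtn3 proteinase 3, both serine proteases, and Mpo the myeloperoxidase that makes hypochlorous acid. They had 612 UMIs in all libraries together, of which 600 were in G-HD, 8 in MPG-HD and 4 in PBS. At least 2 of the 3 genes were found together in 7 of 2341 G-HD cells (0.299%), in 0 of 2087 MPG-HD cells, which allows a share of up to 0.144%, and in 0 of 1373 PBS cells, which allows up to 0.218%. Those 7 cells held 571 of the 612 UMIs (93.3%). Cells were counted here without regard to cluster, since 3 of the 7 lay in cluster 17, 3 in the cycling cluster and 1 in cluster 19.

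The richest of these cells, in cluster 17, had 235 Elane, 30 Mpo and 71 Prtn3 UMIs among 8887, and 127 UMIs of Ctsg (cathepsin G, another primary granule protease), and no Ngp or Camp. The next, in the cycling cluster, had 15 Elane, 41 Mpo, 22 Prtn3 and 191 Ctsg UMIs, and the third, in cluster 17, had 12, 48, 14 and 178. All 3 held at most 2 UMIs of S100a8 and S100a9 together. Another cell of the cycling cluster had 7 Elane and 21 Mpo UMIs beside 120 UMIs of 10 cell cycle genes. Primary genes met later genes in 1 cell of cluster 17, with 6 Elane, 22 Mpo, 44 Camp, 293 S100a8 and 582 S100a9 UMIs. None of the 7 barcodes was shared between libraries, and their doublet scores ran from 0.0623 to 0.187; whether any of them holds more than 1 cell was not tested further.

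Elane had a second, faint pattern. In cluster 14, 14 of 121 cells carried a single Elane UMI, 7 of 71 in G-HD, 5 of 29 in MPG-HD and 2 of 21 in PBS, while Mpo and Prtn3 had 0 UMIs there, which allows up to 15.4 CPM. The Elane level in cluster 14 was 62.3 CPM in G-HD (25 to 128), 107 CPM in MPG-HD (34.8 to 249.9) and 56.2 CPM in PBS (6.81 to 203), and these intervals overlap. In the 5404 cells outside clusters 10, 14 and 17, Elane had 1 UMI, Mpo 5 and Prtn3 8. Faint Elane was not particular to cluster 14. In cluster 17 of G-HD, 2 of 23 cells with at least 10 UMIs of both Ngp and Mmp8 held 3 Elane UMIs. At that level, 2 of 8 cells with Mmp8 but not Ngp held 2, and 1 of 15 with Ngp but not Mmp8 or defensins held 1.

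Rat alpha-defensins, the small antimicrobial peptides of primary granules, did not keep to the primary-rich cells. Defa5, Np4 and RatNP-3b, which were listed with the pathway, together had 28971 UMIs in the 64 G-HD cells of cluster 17, a level of 63322 CPM, in 15 cells with at least 10 UMIs. They had 0 UMIs in the 2 MPG-HD cells and 17 UMIs in the 4 PBS cells. Cluster 14 held 1 defensin UMI in all 3 libraries. The PBS library had 1 further defensin-rich cell, with 2312 of these UMIs among 6605, in the cycling cluster. Defensin genes are close copies of each other, and reads could be split among them, so only their sum is used.

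Of the secondary granule genes, Ngp and Camp lay almost wholly in cluster 17. Ngp, the neutrophilic granule protein, and Camp, the cathelicidin antimicrobial peptide, had 98.4% and 96.8% of all their UMIs in its 70 cells. Ngp stood at 20766 CPM in G-HD (20351 to 21188), 32201 CPM in MPG-HD and 28057 CPM in PBS (26250.4 to 29954). In cluster 14 it had 0 UMIs, with upper limits of 26.7 CPM in G-HD, 64.2 CPM in MPG-HD and 84.3 CPM in PBS. Camp stood at 33048 CPM in cluster 17 of G-HD (32523 to 33579), 18475 CPM in MPG-HD (15867 to 21388) and 50452 CPM in PBS (48019.6 to 52976). It was still seen in cluster 14, at 632 CPM in G-HD (493 to 797), 278 CPM in MPG-HD (148 to 476) and 337 CPM in PBS (174 to 589). The MPG-HD values of cluster 17 rest on 2 cells and the PBS values on 4, of which 1 and 4 carried Ngp.

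Lcn2, the lipocalin that binds bacterial siderophores, stood in cluster 17 at 2979 CPM in G-HD, 3922 CPM in MPG-HD and 6913 CPM in PBS. In cluster 14 it had 2 UMIs in G-HD and 0 in MPG-HD and PBS. Mmp8, the neutrophil collagenase, was the secondary gene seen at a like level in both clusters, at 1666 CPM in cluster 17 and 2127 CPM in cluster 14 of G-HD, and at 845 CPM and 759 CPM in PBS. In MPG-HD it had 4025 CPM in the 2 cells of cluster 17 and 1114 CPM in cluster 14. Ltf, which encodes the iron-binding lactoferrin, had 3 UMIs in the whole series and none in neutrophil-like cells, so it gives no information here. The 3' end annotation behind the counts was not examined.

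**Figure D2:**
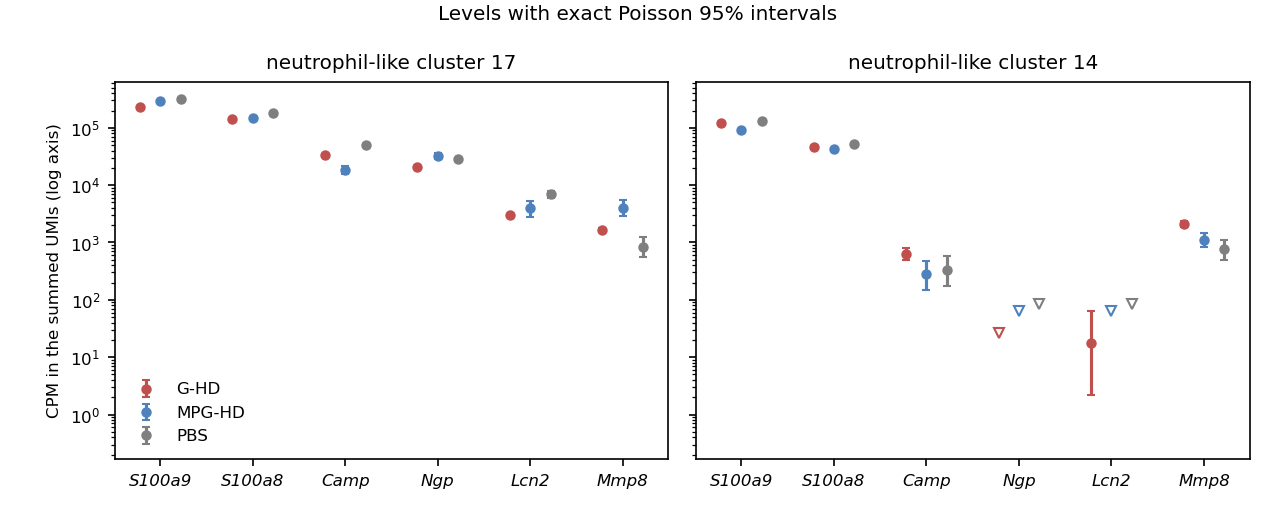
CPM of 6 genes in the summed UMIs of neutrophil-like clusters 17 (left) and 14 (right) on a log axis, in G-HD, MPG-HD and PBS; bars are exact Poisson 95% intervals and open triangles the limit that 0 UMIs allow. Ngp and Lcn2 are at or near 0 in cluster 14 of every library, whereas Mmp8, S100a8 and S100a9 are present in both clusters.

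The 64 G-HD cells were sorted by which of 4 measures reached at least 10 UMIs: the 3 primary genes summed, the 3 defensins summed, Ngp and Mmp8. This grouping was chosen after the values were seen and is a description with no test. The cells fell into a chain in which neighbouring measures overlapped and distant ones did not. Its primary end rests on 3 cells. The link from primary genes to defensins is 1 cell, which had the highest doublet score (0.187) of the 7 cells with at least 2 primary genes. Primary genes alone were found in 2 cells, primary genes with defensins in 1, defensins alone in 10, defensins with Ngp in 4, Ngp alone in 15, Ngp with Mmp8 in 23 and Mmp8 alone in 8, and 1 cell had none of the 4 at that level. Defensins and Mmp8 met in 0 of the 64 cells, although 15 cells had the one and 31 the other. Camp reached 10 UMIs in all 15 defensin cells, in all 42 Ngp cells and in 29 of the 31 Mmp8 cells.

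Genes that were not used to sort the cells differed along this chain. Camp stood at 38931 CPM in cells with defensins alone, 66778 CPM with defensins and Ngp, 43241 CPM with Ngp alone, 23882 CPM with Ngp and Mmp8 and 8805 CPM with Mmp8 alone. Lcn2 stood at 865, 3603, 6121, 3737 and 298 CPM in the same order. Haptoglobin (Hp), another secondary granule protein, stood at 377, 1383, 4434, 6949 and 5373 CPM. The proliferation gene Top2a was found in 0 of the 3 cluster 17 cells with primary genes, in 6 of the 10 cells with defensins alone, in 2 of 4 with defensins and Ngp and in 4 of 15 with Ngp alone, but in 0 of 31 cells with Mmp8. Those 3 cells held 4, 47 and 11 UMIs of the 10 cell cycle genes. The chain leaves out the 3 primary-rich cells that were clustered with the cycling cells, which held 0, 14 and 2 Top2a UMIs. Cebpe was found in 10 of 10 cells with defensins alone, in 3 of 4 with defensins and Ngp, in 15 of 15 with Ngp alone, in 17 of 23 with Ngp and Mmp8 and in 0 of 8 with Mmp8 alone. Mmp9, the gelatinase of the last granules, had 0 UMIs in cells with defensins and was found in 22 of 23 cells with Ngp and Mmp8. Retnlg stood at 16 CPM with defensins alone and 12798 CPM with Mmp8 alone. S100a8 and S100a9 were nearly absent with primary genes alone, at 31.7 CPM each, and reached 100881 and 174263 CPM with defensins alone. They then stayed between 152563 and 212987 CPM (S100a8) and between 279979 and 289952 CPM (S100a9) in the 4 groups with Ngp or Mmp8. The median depth of the groups was lower along the same chain, with 10354 UMIs per cell for defensins alone and 3507 for Mmp8 alone, and its part in these counts of cells was not tested.

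**Figure D3:**
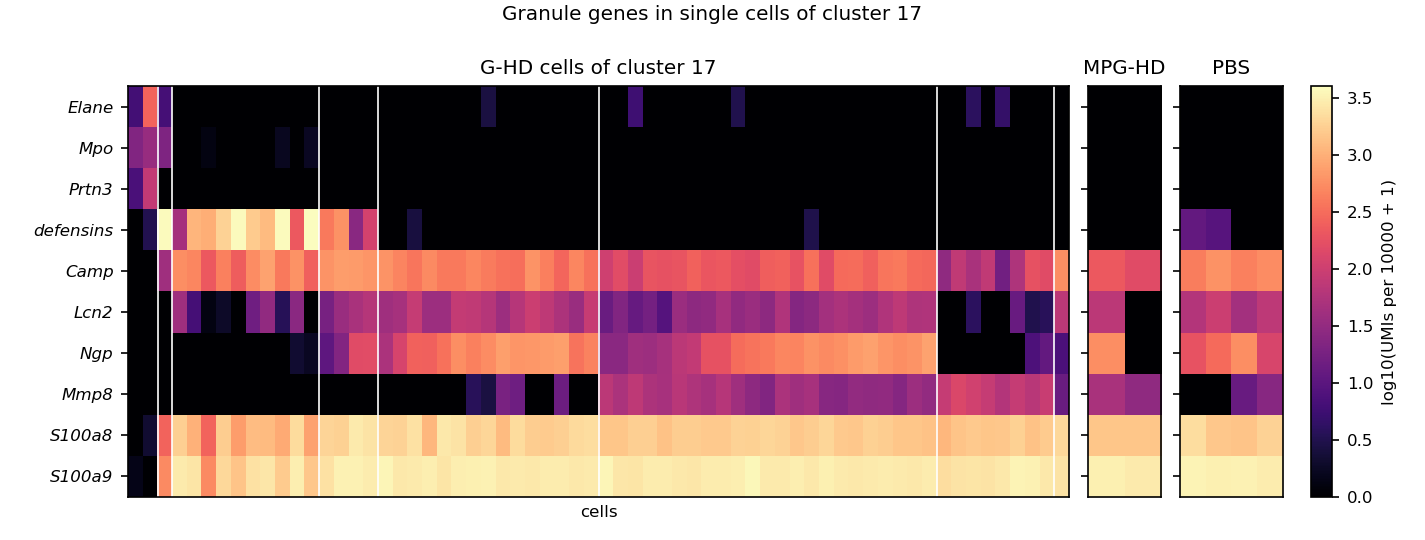
Each column is 1 cell of cluster 17 in G-HD, MPG-HD and PBS, each row a gene or the summed defensins, and the colour log10(UMIs per 10000 + 1); white lines separate the groups of G-HD cells by primary genes, defensins, Ngp and Mmp8, from left to right. Defensins and Mmp8 occupy opposite ends of the G-HD cells, with Ngp between them, and no MPG-HD or PBS cell holds a primary gene.

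The few such cells of the other libraries fell at several places of the chain. In MPG-HD, 1 cell had 312 Ngp and 27 Mmp8 UMIs and the other had 12 Mmp8 and no Ngp UMIs. In PBS, the 4 cells had 97, 170, 261 and 369 Ngp UMIs; the first also reached 10 UMIs of Mmp8 (19), the next reached 10 of the defensins (10), and the other 2 reached it for neither. The defensin-rich PBS cell of the cycling cluster had 105 Camp, 895 S100a8 and 1042 S100a9 UMIs and no Ngp. With 2 and 4 cells the shares of these groups in MPG-HD and PBS cannot be told at this depth.

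Promoter sequences of 8 of the 10 genes were matched in RefSeq (build GRCr8), each from 250 bases before to 50 bases after the annotated start. The core letters bound by C/EBP proteins, the family of Cebpe, were searched as TTGCNNAA on both strands, and are found in 10.6% of all 33469 rat promoters of this length. They are found in 3 of the 8, the genes Ngp, Lcn2 and Mmp8, whose levels along cluster 17 are given above, and these 3 are shown with the match in capitals. A match is a string of letters and not a measured binding site. The Camp promoter, which holds no such match, is shown beside them because Camp spans more of the chain. Its capitals mark 1 stretch that matches the kappa B motif on both strands, a motif that is also found in the Lcn2 promoter (not marked there) and in 7.51% of all promoters.
Ngp, chr8:119272355-119272654, plus strand: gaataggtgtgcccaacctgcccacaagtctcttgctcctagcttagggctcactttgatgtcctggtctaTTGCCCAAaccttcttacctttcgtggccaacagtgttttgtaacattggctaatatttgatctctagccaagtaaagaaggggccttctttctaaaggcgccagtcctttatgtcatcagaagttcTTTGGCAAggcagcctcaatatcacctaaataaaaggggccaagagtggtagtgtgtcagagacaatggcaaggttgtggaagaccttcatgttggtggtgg
Lcn2, chr3:36081731-36082030, minus strand: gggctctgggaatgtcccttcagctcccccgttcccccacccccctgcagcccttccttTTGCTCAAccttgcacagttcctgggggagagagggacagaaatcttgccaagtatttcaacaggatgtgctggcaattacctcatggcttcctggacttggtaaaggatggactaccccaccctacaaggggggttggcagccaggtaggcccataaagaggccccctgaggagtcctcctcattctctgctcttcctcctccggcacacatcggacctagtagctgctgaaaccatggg
Mmp8, chr8:13008640-13008939, plus strand: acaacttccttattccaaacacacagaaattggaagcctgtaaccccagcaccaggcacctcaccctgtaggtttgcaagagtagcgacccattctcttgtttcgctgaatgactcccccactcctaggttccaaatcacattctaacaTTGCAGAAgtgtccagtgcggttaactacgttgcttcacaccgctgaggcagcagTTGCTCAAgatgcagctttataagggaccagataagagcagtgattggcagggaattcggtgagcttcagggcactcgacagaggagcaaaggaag
Camp, chr8:118721949-118722248, minus strand: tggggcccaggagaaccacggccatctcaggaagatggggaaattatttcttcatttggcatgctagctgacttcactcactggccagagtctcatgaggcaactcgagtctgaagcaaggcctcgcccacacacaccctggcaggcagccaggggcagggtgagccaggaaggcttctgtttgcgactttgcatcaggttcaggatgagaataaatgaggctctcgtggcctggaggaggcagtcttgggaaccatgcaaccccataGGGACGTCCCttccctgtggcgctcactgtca
The PU.1 letters GAGGAA were found in the promoters of Mpo, Prtn3, Lcn2 and S100a9, and in 27.6% of all promoters.

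Both late genes were high in every neutrophil-like cluster of every library. S100a8 and S100a9 had 96.9% and 98.2% of all their UMIs in neutrophil-like cells. In cluster 14, S100a8 stood at 46385 CPM in G-HD (45134 to 47662), 42062 CPM in MPG-HD (40222 to 43964) and 51627 CPM in PBS (49293 to 54043). S100a9 stood there at 122129.9 CPM in G-HD, 89928 CPM in MPG-HD (87228 to 92689.8) and 132398 CPM in PBS (128644 to 136234). In cluster 17, S100a8 stood at 143559 CPM in G-HD, 148622 CPM in MPG-HD and 178224 CPM in PBS, and S100a9 at 230663, 297348 and 314598 CPM. S100a8 was found in 68 of 71 G-HD, 25 of 29 MPG-HD and 21 of 21 PBS cells of cluster 14, with medians of 33.0, 29.0 and 38.0 UMIs per cell. The number of S100a9 UMIs per S100a8 UMI was 2.63 in cluster 14 of G-HD (2.55 to 2.72), 2.14 in MPG-HD (2.03 to 2.26) and 2.56 in PBS (2.43 to 2.71).

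The makeup of the 10 genes' UMIs by stage followed the cluster. In cluster 17, secondary genes were 13.5% of these UMIs in G-HD, 11.6% in MPG-HD and 14.9% in PBS, and in cluster 14 they were 1.62% in G-HD (1.45 to 1.81), 1.04% in MPG-HD (0.806 to 1.33) and 0.592% in PBS (0.421 to 0.808). Over the whole neutrophil-like class they were 12.4% in G-HD, 5.69% in MPG-HD and 11.1% in PBS, but 1.73% in MPG-HD without its top granule cell or without the cells of highest doublet score. Primary genes were 0.209% of the class's granule UMIs in G-HD, 0.0450% in MPG-HD and 0.00797% in PBS.

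Levels over the whole class were then compared between libraries, where cluster 17 gave 64 of 135 neutrophil-like cells in G-HD, 2 of 31 in MPG-HD and 4 of 25 in PBS; the part of this mix in the ratios was not tested. A gene was measured where both sums together held at least 50 UMIs, and its ratio counted as a difference past 1.5-fold in either direction. Of 9 members measured in G-HD over PBS, 4 were higher and 0 lower, where 28.2% of 991 genes were higher and 20.2% lower. These 4 were Elane (ratio 15.8, 4.32 to 131, on 2 PBS UMIs), Mpo (at least 4.07-fold higher), Prtn3 (at least 3.36-fold higher) and Mmp8 (2.20, 1.67 to 2.95). The bounds for Mpo and Prtn3 set 3 UMIs over the PBS sum, which had 0. In G-HD, 48 of 103 Mpo UMIs and 71 of 85 Prtn3 UMIs lay in 1 cell each, and without that cell Prtn3 has 14 UMIs, under the minimum of 50, and is no longer counted. Of the 266 Elane UMIs in G-HD, 235 were in 1 cell, and without the top cell of each library the ratio was 3.61 (0.602 to 147). The other 5 lay within the set fold, with ratios of 1.26 for Ngp, 1.11 for Camp, 0.732 for Lcn2 (0.635 to 0.848), 1.12 for S100a8 and 0.957 for S100a9. Without the top cell of each library, Ngp was past it, at 1.84 (1.69 to 2.01), and Lcn2 was at 0.956 (0.801 to 1.15).

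In MPG-HD over PBS, 6 members were measured, of which 1 was higher, Mmp8 at 2.02 (1.43 to 2.88), and 5 were lower, where 36.7% of 248 genes were higher and 8.47% lower. Camp was lowest at 0.142 (0.121 to 0.164), followed by Lcn2 at 0.206, Ngp at 0.417, S100a8 at 0.541 and S100a9 at 0.574. All 312 Ngp and all 38 Lcn2 UMIs of MPG-HD neutrophil-like cells lay in 1 cell, so the ratios of both genes in MPG-HD rest on that cell, and without it both sums are 0. Camp was at 0.0788 (0.0616 to 0.0995) without the top cell of each library. In MPG-HD over G-HD, 0 of 9 members were higher and 8 lower, where 33.3% of 994 genes were higher and 25.8% lower; Mmp8 was the exception at 0.919 (0.733 to 1.14). The median log2 ratio of the measured members was 0.33, -1.07 and -1.59 in these 3 comparisons, against 0.07, 0.37 and 0.19 over all genes measured. Elane was at 0.190 in MPG-HD over G-HD, but above 1 under 6 of the alternative settings, for example 1.32 without the top cell of each library.

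Within cluster 14 alone, Mmp8 and Camp were the members past the set fold. In G-HD over PBS, 2 of 4 measured members were higher, where 17.3% of 323 genes were higher and 8.05% lower. Mmp8 had 2127 CPM in G-HD (37 of 71 cells) and 759 CPM in PBS (7 of 21 cells), a ratio of 2.80 (1.88 to 4.34). Camp had a ratio of 1.87, with an interval of 1.01 to 3.80 and 12 PBS UMIs. S100a8 at 0.898 and S100a9 at 0.922 lay within the set fold. In MPG-HD over PBS, 3 members were measured and 0 passed the fold in either direction, where 17.7% of 186 genes were higher and 6.99% lower. S100a9 came nearest, at 0.679 (0.651 to 0.708), and Mmp8 was at 1.47 (0.905 to 2.43). In MPG-HD over G-HD, Camp at 0.441 (0.224 to 0.803) and Mmp8 at 0.524 (0.380 to 0.709) were the 2 lower of 4 measured members, where 11.6% of 363 genes were lower and 14% higher. These comparisons share libraries and are not independent of each other.

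Outside the neutrophil lineage, Mmp8 and Lcn2 each had a second source. Of all Mmp8 UMIs, 68.6% lay in macrophage-like cells and 29.9% in neutrophil-like cells. Nearly all of the macrophage-like share was in cluster 1, where Mmp8 stood at 122 CPM in G-HD (115 to 129.9), 259 CPM in MPG-HD (243 to 276) and 180.5 CPM in PBS (165 to 197). It was found in 124 of 401 G-HD, 71 of 181 MPG-HD and 45 of 142 PBS cells of cluster 1, with up to 43, 100 and 52 UMIs in a single cell. The other macrophage-like clusters stood at 2.83 CPM in G-HD, 19 CPM in MPG-HD and 3.27 CPM in PBS (cluster 3) and at 8.16, 7.16 and 6.80 CPM (cluster 6). In macrophage-like cells, Mmp8 had 3.85 UMIs per S100a8 UMI in G-HD, 35.2 in MPG-HD and 7.43 in PBS, against 0.0141, 0.0267 and 0.00717 in neutrophil-like cells of the same libraries.

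Lcn2 had 29.8% of its UMIs in endothelial-like cells and 62.1% in neutrophil-like cells. The endothelial-like level was 497 CPM in G-HD (432 to 569.7), 703 CPM in MPG-HD (618 to 795) and 715 CPM in PBS (639 to 797). It was found in 21 of 41 G-HD, 19 of 32 MPG-HD and 17 of 37 PBS endothelial-like cells, and the highest single cells held 46, 52 and 76 UMIs. Without that top cell the levels were 422, 589 and 606 CPM. In fibroblast-like cluster 11, Lcn2 had 41 G-HD and 48 PBS UMIs, but 23 and 42 of them lay in 1 cell each.

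**Figure D4:**
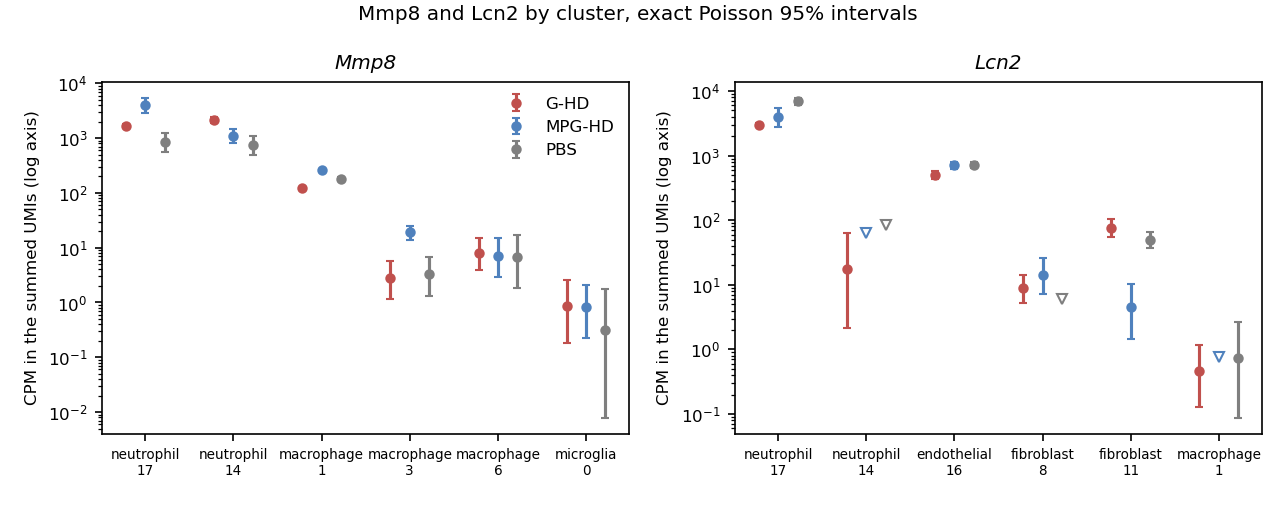
CPM of Mmp8 (left) and Lcn2 (right) on a log axis in the summed UMIs of named clusters in G-HD, MPG-HD and PBS; bars are exact Poisson 95% intervals and open triangles the limit that 0 UMIs allow. Macrophage-like cluster 1 stands above the other macrophage-like clusters for Mmp8, and endothelial-like cluster 16 above the fibroblast-like clusters for Lcn2.

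The cycling cluster held few granule UMIs apart from single cells. Its late gene UMIs were 439 in G-HD, 589 in MPG-HD and 1943 in PBS, of which 1 cell in each library held 304, 582 and 1937. Without the cells holding at least 10 such UMIs, the level was 38.9 CPM in G-HD, 7.77 CPM in MPG-HD and 11.3 CPM in PBS. A late gene UMI was found in 40.6% of G-HD, 8.57% of MPG-HD and 15% of PBS cycling cells. The primary genes had 137 UMIs in cycling G-HD cells and 0 in those of MPG-HD and PBS. In neutrophil-like cells, the 10 cell cycle genes of the list stood at 868 CPM in cluster 17 of G-HD, against 4007 CPM in the cycling cluster of the same library and 196 CPM in cluster 14. G-HD cells outside the neutrophil-like and cycling classes stood at 567 CPM. Single genes of this sum differed. Of the 22 UMIs in cluster 14 of G-HD, 19 were Pcna. Stmn1 stood at 271 CPM in cluster 17 of G-HD and at 708 CPM in all cells outside the neutrophil-like class, over all libraries and with cycling cells. Top2a stood at 133 CPM in cluster 17 of G-HD, 0 CPM in cluster 14 of G-HD and 21.4 CPM in those outside cells. Of the 64 G-HD cells of cluster 17, 25 held a UMI of the 10 cell cycle genes, with a median of 0 and at most 67 per cell.

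Granule UMIs were also found, at low level, in cells of every other class, most widely in G-HD. Without thinning, S100a8 was found in 22.8% of G-HD, 2.92% of MPG-HD and 5.12% of PBS cells outside the neutrophil-like class. After thinning each cell to 1000 UMIs, which leaves out 87 G-HD, 67 MPG-HD and 63 PBS cells, the shares were 3.16% in G-HD (2.46 to 4.00), 0.352% in MPG-HD (0.142 to 0.724) and 0.778% in PBS (0.374 to 1.43). Neutrophil-like cells thinned in the same way gave 96.2% in G-HD, 92.9% in MPG-HD and 100% in PBS. S100a9 was found in 2.22% of thinned G-HD cells outside the class (1.63 to 2.94), 0.452% of MPG-HD and 0.467% of PBS cells, and Camp in 1.04% (0.652 to 1.57), 0.0503% and 0.545%. Ngp was found in 0.661% of G-HD cells (0.362 to 1.11), in 0 of 1989 MPG-HD cells and in 0 of 1285 PBS cells. Levels this low are near that of 1 UMI in a thinned cell, and whether these UMIs were free RNA or were made by the cells that held them was not tested.

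In G-HD, cluster 19 stood above the larger classes, with S100a8 in 21.7% of its 23 thinned cells (7.46 to 43.7), against 15.4% of 13 in MPG-HD (1.92 to 45.4) and 9.52% of 21 in PBS (1.17 to 30.4). Among named classes of G-HD, S100a8 was found in 2.01% of thinned macrophage-like cells (1.10 to 3.35), 1.72% of microglia-like (0.562 to 3.98), 2.99% of Schwann-like (1.10 to 6.38), 5.77% of T-like (2.15 to 12.1) and 6.12% of B-like cells (2.28 to 12.9), and the intervals of these 5 classes overlap. In MPG-HD it was found in 0 of 457 macrophage-like, 0 of 203 Schwann-like and 0 of 53 T-like cells. A few cells stood far above this level. A G-HD oligodendrocyte-like cell held 317 S100a8 and 121 S100a9 UMIs, and a G-HD Schwann-like cell 79 and 149. Whether these are 2 cells in a droplet was not tested, because the doublet caller had not worked.

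**Figure D5:**
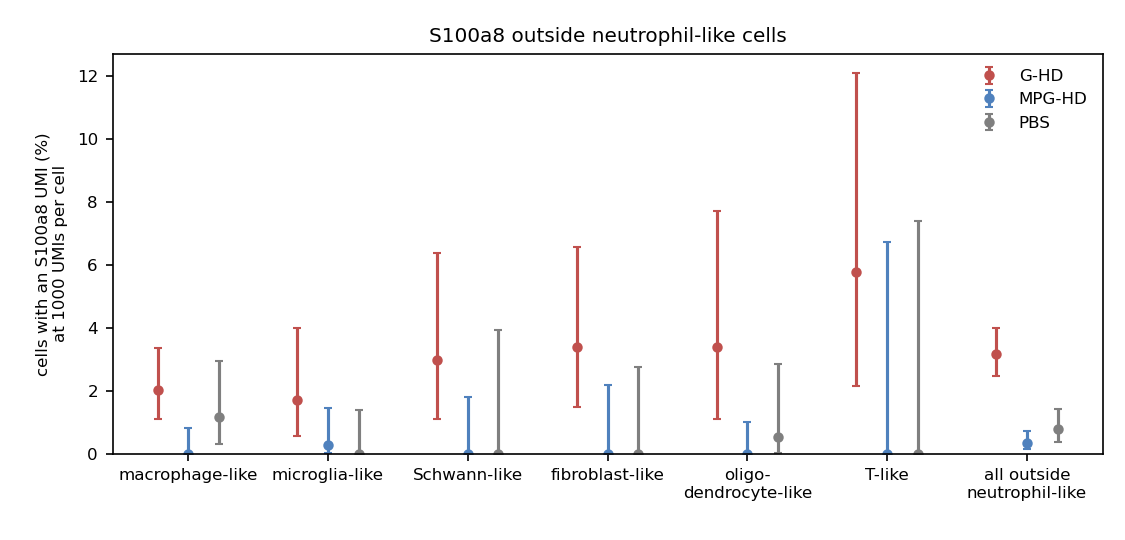
Share of cells with at least 1 S100a8 UMI after thinning to 1000 UMIs per cell, by class outside neutrophil-like cells, in G-HD, MPG-HD and PBS; bars are exact binomial 95% intervals. The G-HD points lie between 1.72% and 5.77% in the single classes shown and at 3.16% over all cells outside, where MPG-HD is at 0.352% and PBS at 0.778%.

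The proportions among granule genes outside the class were set beside those inside it. Cells outside the neutrophil-like and cycling classes with under 10 UMIs of the 10 genes were used. In G-HD, Ngp had 0.681 UMIs per Camp UMI there (0.548 to 0.843), against 0.625 (0.610 to 0.642) in neutrophil-like cells. In MPG-HD it had 0.0217 (0.000539 to 0.127), against 1.62 in neutrophil-like cells, and in PBS 0.185 (0.0841 to 0.367), against 0.552. Over all these cells, this ratio was thus within counting error of the neutrophil-like one in G-HD and below it in MPG-HD and PBS. The G-HD match did not hold with macrophage-like, microglia-like and unnamed cells also left out. The remaining G-HD cells held 50 Ngp and 51 Camp UMIs, and the interval of their ratio (0.650 to 1.48) lay above the inside one. In MPG-HD and PBS the intervals then included the inside value, on 1 and 7 Camp UMIs. The inside value of MPG-HD rests on 1 cell, which held all 312 Ngp UMIs of the class and 116 of its 192 Camp UMIs. Without that cell the class has no Ngp UMI in MPG-HD, so the order there depends on it. In PBS the inside value rests on 4 cells with Ngp. S100a9 had 0.750 UMIs per S100a8 UMI outside in G-HD (0.658 to 0.854), against 1.68 (1.67 to 1.70) inside. In MPG-HD it had 0.472 (0.304 to 0.719), against 2.08, and in PBS 0.646 (0.445 to 0.930), against 1.96. The low S100a9 per S100a8 was not seen in all outside cells. With macrophage-like, microglia-like and unnamed cells also left out, it was 0.767 in G-HD (0.615 to 0.955), but 1.43 in MPG-HD (0.491 to 4.42) and 2.08 in PBS (1.01 to 4.55), on 7 and 12 S100a8 UMIs. Camp had 0.394 UMIs per S100a8 UMI in G-HD (0.335 to 0.462), against 0.214 (0.211 to 0.218) inside, and 0.264 (0.190 to 0.361) with those classes left out, an interval that includes the inside value. In MPG-HD and PBS, Camp had 0.639 and 0.684 UMIs per S100a8 UMI, against 0.0564 and 0.216 inside. Defensins had 0.819 UMIs per Camp UMI in G-HD (0.668 to 1.00), against 1.91 (1.87 to 1.95) inside, and 1.25 (0.855 to 1.85) with those classes left out. Cells outside the class were taken as they were clustered. Whether this RNA was free and, if so, which cells it came from was not tested.

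Other granule genes of the pathway lists were compared between clusters 17 and 14 over all libraries, where 27.5% of 1085 genes were higher in cluster 17 and 43.2% higher in cluster 14. Of 7 measured other primary granule genes, 4 were higher in cluster 17 from 1.5-fold on (Ctsg, Defa5, Np4 and RatNP-3b) and 2 in cluster 14, with Srgn at 2546 CPM in cluster 17 and 4002 CPM in cluster 14. These 4 rest on few cells, as 305 of the 306 Ctsg UMIs of cluster 17 lay in 2 cells. The defensins reached 10 UMIs in 15 of its 64 G-HD cells, and as close copies they are not independent genes in this count. Of 8 measured other secondary genes, 6 were higher in cluster 17 and 2 in cluster 14. Hp stood at 3554 CPM in cluster 17 and 596 CPM in cluster 14, Cd177 at 619 and 5.14 CPM, and Cybb, a subunit of the NADPH oxidase, at 563 and 10.3 CPM, while lysozyme (Lyz2) stood at 17298 and 35014 CPM. Among gelatinase granule and secretory genes, 2 of 4 were higher in cluster 17 and 2 in cluster 14, with Anxa1 at 11196 and 2419.9 CPM and the protease inhibitor Slpi at 465 and 7969 CPM. Of the listed regulators, Cebpd and Spi1 were the 2 measured, and both were higher in cluster 14. Cluster 17 is 64 of 70 cells from G-HD, so this contrast is also one between mixes of libraries.

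Over 64 points, each a cluster in a library with at least 10 cells, the genes whose log2(CPM + 5) most resembled that of the late genes were Mcemp1 (r = 0.860), Pglyrp1 (0.850), Retnlg (0.848), Padi4 (0.837) and Trem3 (0.828). For the secondary genes they were Degs2 (0.773), Lrg1 (0.739), Pglyrp1 (0.729), Mctp1 (0.708) and Padi4 (0.707), and for the primary genes Padi4 (0.869), Pglyrp1 (0.821), Retnlg (0.809), Retn (0.780) and Mcemp1 (0.765). Values are Pearson correlations. These are descriptions among 11040 genes, the points share libraries and depth, and cluster 17 gave 1 of the 64. For the primary genes, the points of cluster 14 rest on 7 Elane UMIs in G-HD, 5 in MPG-HD and 2 in PBS, with 0 of Mpo and Prtn3. A correlation over clusters does not place a gene at a stage. In cluster 17 of G-HD, the 2 cells with primary genes alone held 0 Pglyrp1 and 0 Retnlg UMIs, while Retnlg stood at 12798 CPM in cells with Mmp8 alone.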

How the data were processed

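Cells of a 5-mm cord section were read with the 10x Genomics 3′ kit v3, per the labels' protocols. The deposited matrices hold raw UMI counts for 25199 rat features; per the submitters' processing notes the tool was Cell Ranger 3.0.2 and the builds listed are of mouse (GRCm38, mm10), while the matrix header gives 3.1.0. The rat build is not given in the sources used here. Barcodes needed 200 or more genes and no more than 20% mitochondrial UMIs, and 5801 cells were kept. They were scaled to 10000 UMIs and clustered with Scanpy 1.11.5 and leidenalg 0.10.2 (2000 variable genes, 30 components, 20 neighbours, resolution 0.8). Classes were named from marker lists that hold none of the 10 genes. Scrublet marked 14 cells (0.241%), too few to have worked; these were left out and other doublets may remain. UMI sums gave CPM with exact Poisson intervals, ratios with exact conditional intervals and shares with Clopper-Pearson intervals, all at 95%. A sum of 0 was set to 3 UMIs for bounds. Members and lists were chosen with earlier results of these data known. All 10 members are described; most-like genes are the first 5 by correlation with each stage's sum, and pathway genes are counted from 50 UMIs on. Groups of cells within cluster 17 and the marker tie rule were chosen after the values were seen. The ratio procedure was tested on simulated data. Total UMIs were 26289759 in G-HD, 23988263 in MPG-HD and 16081082 in PBS. Alternatives covered cell filters, resolution, kept granule genes, shared barcodes, doublet scores, weighting, denominators, top cells and thinning.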

Additional observations from a re-analysis of the deposited data

Results flagged for a closer look

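Barcodes that failed the cell filter, which enter none of the comparisons, held more S100a8 and S100a9 in G-HD than in the PBS control. Their summed level was 477 CPM in 272 G-HD barcodes (414 to 546), 9.75 CPM in 248 MPG-HD barcodes (2.66 to 25) and 35.5 CPM in 136 PBS barcodes (15.3 to 70.0). Of the 210 such UMIs in G-HD, 162 lay in 1 barcode.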

How the results depend on the processing

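No paired analysis was possible because each condition had 1 library. Values are given for G-HD, MPG-HD and PBS in that order. Of 153 recomputed summary values, 75 moved by less than their interval and 78 by more; of 442 single-gene values, 184 did not, 252 did and 6 turned round. With cluster 14 only, added after seeing the data, and equally at resolution 0.4, the neutrophil-like share in G-HD was 3.03%, the 10 genes held 17.1%, 13.3% and 18.5% of UMIs, secondary genes made 1.62%, 1.04% and 0.592% of granule UMIs, and S100a8 or S100a9 was found in 7.79% of G-HD cells outside. The 10-gene ratios were then 0.925 for G-HD over PBS, 0.721 for MPG-HD over PBS and 0.779 for MPG-HD over G-HD, against 1.03, 0.531 and 0.516 as reported here. With cluster 19 added to the class, also after seeing the data, the share was 2.11% in MPG-HD and 3.35% in PBS, the level 30.3%, 9.18% and 15.6%, and the ratios 1.95, 0.59 and 0.303. With the 10 genes out of the denominator, the level was 61.8%, 24.6% and 59.1% and the ratios 1.04, 0.416 and 0.398. With every cell weighing the same they were 30.5%, 14% and 22.5%, and 1.35, 0.621 and 0.459. With granule genes kept in clustering, the level was 40.4% in G-HD and 36.6% in PBS, the ratios over PBS and G-HD 1.1 and 0.489, and secondary genes 10.7% in PBS. With no cell filter the level was 40.5% in G-HD and 20.5% in MPG-HD, and the ratios 1.09, 0.55 and 0.505. Without shared barcodes the level was 32.0% and 20.1%, G-HD over PBS 0.861, MPG-HD over G-HD 0.628, secondary genes 12.3% and the outside share 6.09% in G-HD. Without the top 5% of doublet scores the level was 44.5% and 15.9%, the ratios 1.2, 0.428 and 0.358, and secondary genes 1.73% in MPG-HD. Without the top cell the level was 37.6%, 15.9% and 33.3%, the ratios 1.13, 0.478 and 0.423, and secondary genes 1.73% in MPG-HD. Counting Mmp8 as late gave secondary shares of 12% in G-HD and 4.87% in MPG-HD. The outside share of S100a8 or S100a9, 5.05%, 0.754% and 1.09% as reported at 1000 UMIs, was 35.9%, 4.47% and 8.9% without thinning, and 3.13% in G-HD and 0.34% in MPG-HD at 500 UMIs. Elane in MPG-HD over G-HD, 0.190 as reported, was 2.66 with no cell filter, 1.72 at resolution 0.4 and with cluster 14 only, 2.51 with granule genes kept, 3.31 without high doublet scores and 1.32 without the top cell; 235 of its 266 UMIs lay in 1 cell. A stricter filter (500 or more genes, no more than 10% mitochondrial UMIs) left the neutrophil cluster unnamed, so that setting gave no values. Depth limits cluster 17 in MPG-HD (2 cells) and PBS (4 cells). The cause of these shifts was not tested.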
